A study of Homo sapiens with 3 samples.

Results

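The protein-coding genes named MRPL or MRPS and a digit, which encode most proteins of the human mitochondrial ribosome, were followed in an RNA sequencing experiment on KYSE30. This is an established cell line that was derived from a squamous carcinoma of the human esophagus. The genes were chosen by symbol alone. Of 60554 genes in the count table, 164 carried such a symbol, 78 of these were protein-coding and were kept, and the other 86, of which 79 are annotated as pseudogenes, were left out. There were 3 stable lines with 1 library each, all infected with virus made in 293T cells for 24 hours, selected with 5 µg/mL blasticidin for 2 weeks and grown with 10% serum. A pair of lines carried different shRNAs in pLKO.1-blast against SNORD12B. This small nucleolar RNA belongs to the box C/D class, which guides the methylation of ribosomal RNA, and the libraries of these lines are labelled shRNA 1 and shRNA 2. The control line carried pLKO.1-blast too, with a non-targeting scrambled shRNA according to the treatment protocol, although its genotype label reads "vector". The labels name neither clones nor replicate cultures, so each line is represented by 1 sample.

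Mitochondria carry ribosomes of their own, which translate the mRNAs of the mitochondrial genome into subunits of the respiratory chain and of ATP synthase. The RNAs of these ribosomes come from mitochondrial DNA, whereas every protein in them is encoded in the nucleus, made in the cytosol and imported. Many of the proteins are homologues of bacterial ribosomal proteins and others are found in mitochondrial ribosomes only. The letters L and S stand for the large and the small subunit, with the exception of MRPS18A and MRPS30, which sit in the large subunit. By this grouping the 78 genes comprised 51 of the large and 27 of the small subunit. The 27 include MRPS36, which kept its name but whose product is known as a subunit of the 2-oxoglutarate dehydrogenase complex.

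The libraries were similar in depth, and the few reads of the targeted RNA went against the label of the library labelled shRNA 1. Total counts were 15146805 in the library labelled shRNA 1, 17336936 in that labelled shRNA 2 and 15473922 in the control. SNORD12B was counted 15 times with shRNA 1, 1 time with shRNA 2 and 7 times in the control, so that its scaled count was 2.16 times that of the control with shRNA 1 (95% exact interval 0.831 to 6.28) and 0.126 times with shRNA 2 (0.0028 to 0.982). Its host gene ZFAS1 was counted 216, 165 and 186 times in the same order. The library labelled shRNA 1 thus held no fewer SNORD12B reads than the control, and libraries are named by their labels throughout. The library kit is unknown here, so it is uncertain how well these few reads measure an RNA as short as SNORD12B, and whether the depletion succeeded in either line cannot be read from them. Of 9 squamous markers, 8 reached a level of 1 CPM (counts scaled to the library size) in every library, and the exception was KRT5 with 3, 2 and 1 counts. The summed squamous markers were 656, 967 and 1122 CPM and the summed markers of simple epithelium 8029, 9748 and 8802 CPM in shRNA 1, shRNA 2 and control. Single markers in these sums differed. SFN, with 358, 495 and 412 CPM, and DSG3 were above the control with shRNA 2 and below it with shRNA 1. SOX2, with 12.2, 38.9 and 104 CPM, and TP63, KRT6A, KRT14, KRT17 and DSC3 were below it in both shRNA libraries. KRT19 had 1309, 2793 and 1928 CPM, whereas KRT8 had 4335, 4340 and 4366 CPM. Leukocyte markers summed to between 0.132 and 0.230 CPM. COL1A1 accounted for the whole fibroblast sum of 9.34, 13.2 and 15.9 CPM, with COL1A2, DCN and PDGFRA at 0, and the endothelial sum of 0.855, 5.29 and 2.60 CPM was CDH5 with at most 1 count of PECAM1. Markers of the packaging cells summed to 24.2, 15.0 and 18.9 CPM, nearly all of it LHX1, with NEFL at 0. The part of these markers in the results below was not tested. In bulk libraries of this kind, fewer cells of a type and less RNA per cell cannot be told apart.

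All 78 genes were detected in every library and passed the filter on low counts, and 74 had at least 100 counts in each library. The start regions of 5 of them are printed here. MRPL50 and MRPL46 were among the 5 highest in the pair of shRNA lines. MRPS26 differed most between the shRNA lines among genes above 5 CPM, and MRPS23 was the lowest with shRNA 2 above that floor. MRPS12 stands at no such end and encodes a protein of the decoding centre. All 5 windows hold a marked match, whereas 26 of 69 windows held no match for ETS factors, NRF1 or YY1. Windows without a match include those of MRPS17, MRPL1 and MRPL39, also among the 5 highest in the pair, and of MRPS25. Each sequence is RefSeq's window of 300 bases, 250 before and 50 after the annotated start, in GRCh38.p14, read 5′ to 3′ on the strand of the gene. The windows are chr9:101398569-101398868 on the minus strand for MRPL50, chr15:88467339-88467638 on the minus strand for MRPL46, chr20:3045802-3046101 on the plus strand for MRPS26, chr17:57849995-57850294 on the minus strand for MRPS23 and chr19:38930694-38930993 on the plus strand for MRPS12. Capitals mark matches to AAGATGGCG, the core recognised by YY1, in MRPL50 and MRPL46, and to CCGGAAG or its reverse complement CTTCCGG, the core recognised by ETS factors such as GABPA, in the other 3.
MRPL50: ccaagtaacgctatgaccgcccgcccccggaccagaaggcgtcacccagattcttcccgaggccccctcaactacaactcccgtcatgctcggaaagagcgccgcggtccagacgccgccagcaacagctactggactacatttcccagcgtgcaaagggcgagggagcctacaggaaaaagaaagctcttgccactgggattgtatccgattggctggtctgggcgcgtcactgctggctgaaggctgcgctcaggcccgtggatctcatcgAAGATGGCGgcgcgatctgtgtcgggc
MRPL46: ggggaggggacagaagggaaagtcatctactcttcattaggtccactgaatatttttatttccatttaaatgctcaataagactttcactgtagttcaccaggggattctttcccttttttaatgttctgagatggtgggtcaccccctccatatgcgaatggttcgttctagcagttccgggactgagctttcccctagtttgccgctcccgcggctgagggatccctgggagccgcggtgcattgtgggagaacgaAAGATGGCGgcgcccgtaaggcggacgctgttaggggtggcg
MRPS26: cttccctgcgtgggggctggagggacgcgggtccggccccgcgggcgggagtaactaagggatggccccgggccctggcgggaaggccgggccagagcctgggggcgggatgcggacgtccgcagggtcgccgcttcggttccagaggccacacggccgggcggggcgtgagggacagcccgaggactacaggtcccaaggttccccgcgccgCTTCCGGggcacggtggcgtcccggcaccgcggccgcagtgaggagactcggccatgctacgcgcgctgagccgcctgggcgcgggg
MRPS23: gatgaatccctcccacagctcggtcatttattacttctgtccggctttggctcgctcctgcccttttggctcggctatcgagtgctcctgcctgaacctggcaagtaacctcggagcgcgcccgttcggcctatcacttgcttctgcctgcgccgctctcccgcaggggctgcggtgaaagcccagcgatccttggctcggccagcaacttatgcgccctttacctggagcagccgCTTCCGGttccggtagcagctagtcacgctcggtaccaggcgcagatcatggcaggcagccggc
MRPS12: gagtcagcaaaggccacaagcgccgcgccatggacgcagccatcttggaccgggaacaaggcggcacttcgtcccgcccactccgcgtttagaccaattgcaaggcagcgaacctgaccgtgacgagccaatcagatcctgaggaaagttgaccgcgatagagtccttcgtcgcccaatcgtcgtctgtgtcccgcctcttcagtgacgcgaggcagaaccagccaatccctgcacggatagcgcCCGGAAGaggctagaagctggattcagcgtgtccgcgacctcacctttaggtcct

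Such matches were common among the genes. RefSeq's table held a window for 69 of the 78 genes, and the first window listed for each gene was searched on both strands. CCGGAAG was present in 29 of the 69 windows (42.0%), against 18.9% of 10535 windows of tested protein-coding genes and 10.7% of all 27305 windows. AAGATGGCG was present in 13 (18.8%), against 3.91% and 1.85% of the same backgrounds. The GC-rich core motif of NRF1 was present in 8 (11.6%, against 11.4% and 6.28%), CACGTG, the E-box bound by MYC and its partners, in 6 (8.70%, against 9.97% and 7.43%) and TATAAA in 2 (2.90%, against 5.83% of the windows of tested protein-coding genes). The ends of CCGGAAG and AAGATGGCG share the letters AAG, so that matches to both can overlap. In all, 43 of the 69 windows (62.3%) held at least 1 of the first 3, against 30.4% of the windows of tested protein-coding genes. Matches are described as letters in a window, not as bound sites.

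Levels differed far more between the genes than between the libraries. Per length, in TPM (counts scaled by length and by library) computed with the exon length in the table, the median gene stood at 55.0 TPM with shRNA 1, 41.6 TPM with shRNA 2 and 45.0 TPM in the control. Among the 74 genes with at least 5 CPM on average, the highest level was 60.0 times the lowest with shRNA 1, 58.0 times with shRNA 2 and 75.3 times in the control. The order of the genes by TPM was nearly the same in each library, with Spearman correlations across the 78 genes of 0.964 between the shRNA libraries, 0.980 between shRNA 1 and control and 0.984 between shRNA 2 and control. These correlations describe genes within single libraries that share the same exon lengths, and genes are not replicates.

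**Figure D1:**
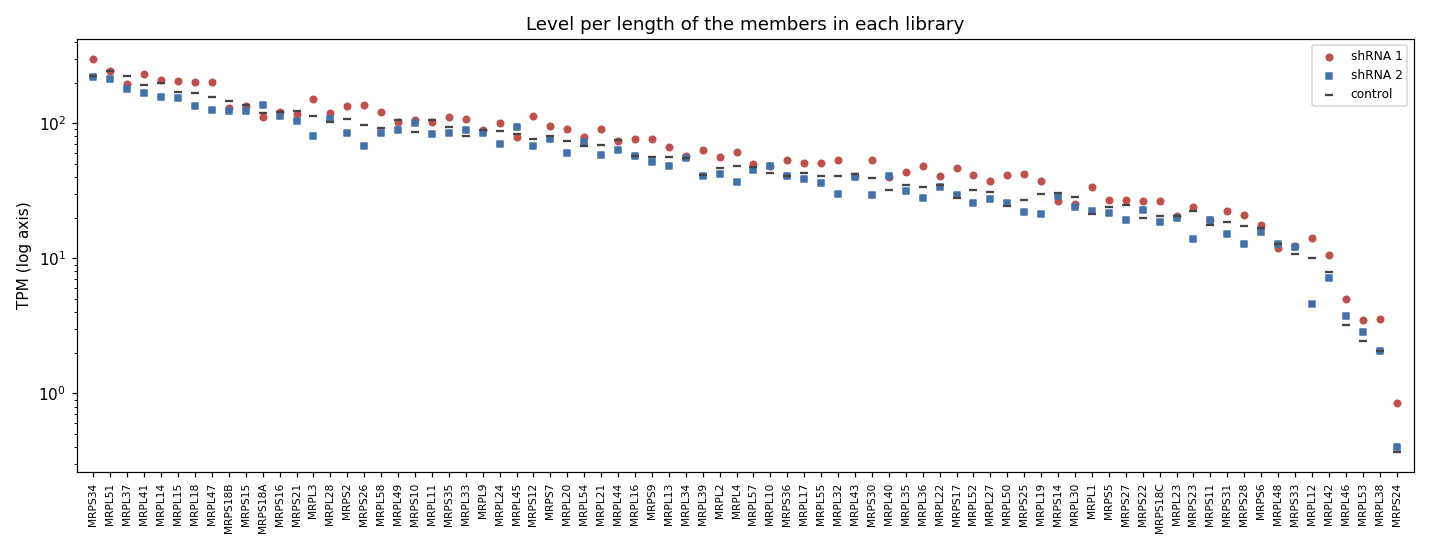
Level per length of each of the 78 genes (x axis, ordered by mean TPM) on a log axis in TPM, with circles for shRNA 1, squares for shRNA 2 and dashes for the control. The 3 marks of a gene lie close together against a range that runs from 301 TPM for MRPS34 with shRNA 1 to 0.369 TPM for MRPS24 in the control.

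By mean TPM over the 3 libraries, the 4 highest genes encode proteins that bacterial ribosomes lack. Within single libraries the order differed, with MRPL14, a homologue of a bacterial protein, at 208 TPM against 195 TPM for MRPL37 with shRNA 1. MRPS34, a small-subunit protein, had 301 TPM with shRNA 1, 218 TPM with shRNA 2 and 222 TPM in the control. MRPL51 had 246, 212 and 244 TPM and MRPL41 had 232, 169 and 192 TPM in the same order. MRPL37 was the only one of these 4 that was lower than the control in both shRNA libraries by count intervals, with 195, 178 and 225 TPM. At the other end, MRPS24 had 0.855, 0.403 and 0.369 TPM, MRPL53 had 3.48, 2.87 and 2.44 TPM, MRPL38 had 3.55, 2.06 and 2.05 TPM and MRPL46 had 5.02, 3.76 and 3.24 TPM. The first 3 of these overlap other genes, and the part of this in their low levels was not tested. The counting tool discards reads that fall in 2 genes of the counted strand, and 23.2% of the exonic bases of MRPS24, 45.2% of MRPL53 and 37.5% of MRPL38 also belong to another gene there. For MRPS24 this other gene is the read-through URGCP-MRPS24 and for MRPL53 it is CCDC142. MRPL12 had 68.2% of its exonic bases in such an overlap, and 9 genes had at least 10%. The levels of these genes are uncertain, and their ratios between libraries rest on the bases that are left.

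The genes as a set lay above the control in the library labelled shRNA 1. Summed over the 78 genes, counts were 66569 with shRNA 1 and 60702 in the control, or 4377 and 3952 CPM after scaling, a ratio of 1.11 (exact interval for counting error 1.10 to 1.12). The median log2 ratio of the genes was 0.21, against 0.01 for all 17801 genes tested and 0.02 for the 10633 protein-coding genes with at least 5 CPM. Of the 78, 60 (76.9%) lay above the control, against 51.5% of all genes tested and 52.5% of those protein-coding genes, and 18 lay below it, against 48.5% of all genes tested. The counting interval lay wholly above 1 for 44 and wholly below 1 for 7, against 25.6% and 24.1% of all genes tested. A difference of at least 1.5-fold was reached by 5 genes upward and 0 downward, where 10.8% and 12.7% of all genes tested, and 6.28% and 7.36% of the protein-coding genes with at least 5 CPM, did so. A difference of 0.32 on the log2 scale was passed by 26 upward and 0 downward (23.6% and 23% of all genes tested), and 2-fold by 0 (3.74% and 5.58%). The shift was thus small for each gene and spread over many of them. With 1 library a line, these ratios have no replicate check and no test.

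With shRNA 2 the same genes lay below the control. Summed counts were 59150 with shRNA 2 and 60702 in the control, or 3401 and 3952 CPM after scaling, a ratio of 0.861 (0.851 to 0.870). The median log2 ratio was -0.19, against -0.00 for all genes tested and -0.01 for the protein-coding genes with at least 5 CPM. Of the 78 genes, 61 (78.2%) lay below the control, against 50.3% of all genes tested, and 17 lay above it, against 49.7% of all genes tested and 49% of those protein-coding genes. The counting interval lay wholly below 1 for 45 and wholly above 1 for 3, against 24.2% and 23.3% of all genes tested. Only MRPL12 and MRPS23 passed 1.5-fold, both downward, where 9.92% of all genes tested did so downward and 9.38% upward, and 5.19% and 4.22% of those protein-coding genes. A difference of 0.32 on the log2 scale was passed by 0 upward and 21 downward (21.1% and 21.4% of all genes tested), and 2-fold by 0 upward and MRPL12 downward (2.98% and 3.46%). The 2 comparisons share the control library.

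Set directly against each other, the shRNA libraries differed more than either did from the control. The summed level was 4377 CPM with shRNA 1 and 3401 CPM with shRNA 2, a ratio of 1.29 (1.27 to 1.30), and the median log2 ratio was 0.40, against 0.00 for all genes tested. Of the 78 genes, 71 (91%) were higher with shRNA 1, against 50.1% of all genes tested and 51.6% of the protein-coding genes with at least 5 CPM. The 7 that were not, against 49.9% of all genes tested, were MRPS11, MRPL10, MRPL40, MRPL48, MRPS14, MRPL45 and MRPS18A. The counting interval lay above 1 for 57 genes and below 1 for 2, against 28.4% and 28.1% of all genes tested. A difference of at least 1.5-fold was reached by 22 genes, all higher with shRNA 1, where 14.8% of all genes tested were higher and 15.8% lower by that much, and 11.4% and 10.5% of those protein-coding genes. A difference of 0.32 on the log2 scale was passed by 45 upward and 0 downward (26.8% and 27.2% of all genes tested), and 2-fold by MRPL12 upward and 0 downward (5.54% and 6.61%).

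**Figure D2:**
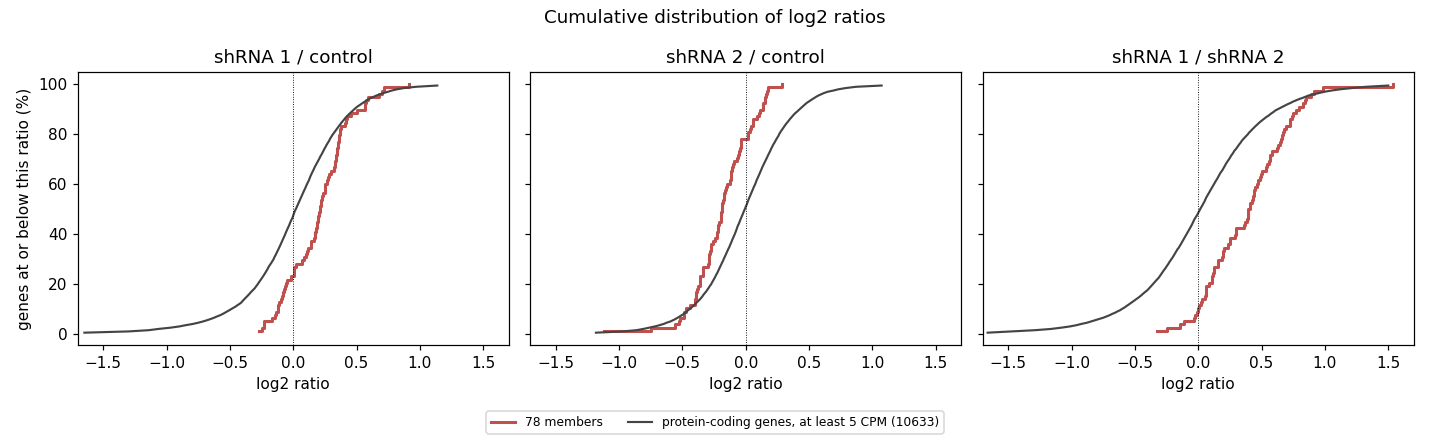
Cumulative share of genes (y axis, percent) at or below a log2 ratio (x axis) for the 78 genes in red and for 10633 protein-coding genes with at least 5 CPM in black, in the 3 comparisons of single libraries. Over most of its course the red curve lies right of the black one for shRNA 1 over control, left of it for shRNA 2 over control and right of it for shRNA 1 over shRNA 2, with medians of 0.21, -0.19 and 0.40.

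The test of the design, which takes the shRNA lines as a pair against the control, called none of the 78 genes. In edgeR's quasi-likelihood F test the lowest unadjusted p among them was 0.304 and every adjusted p was 1.00, with Benjamini-Hochberg adjustment over all 17801 genes. No gene of the set had an unadjusted p under 0.05, and DESeq2 and edgeR's likelihood ratio test called 0 as well. Over all genes tested the quasi-likelihood test also called 0 (0%), whereas DESeq2 called 15 and the likelihood ratio test 38, and in the quasi-likelihood test 0.41% and 0.921% had an unadjusted p under 0.05 upward and downward. The median log2 fold change of the set was 0.01, with 42 genes above 0 and 36 below, and standard errors, worked back from the test, had a median of 0.36. Every estimate of spread comes from the 2 shRNA lines, with 1 residual degree of freedom a gene. The test moderates it by the spread of all genes, with 8.35 prior degrees of freedom. A p-value therefore does not measure the spread of that gene alone. In this fit a gene that is high in 1 shRNA line and low in the other has a fold change near 0. Moderation keeps the standard errors close, at 0.45 for MRPS26, which differed between the lines, and 0.34 for MRPL43, which was even.

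**Figure D3:**
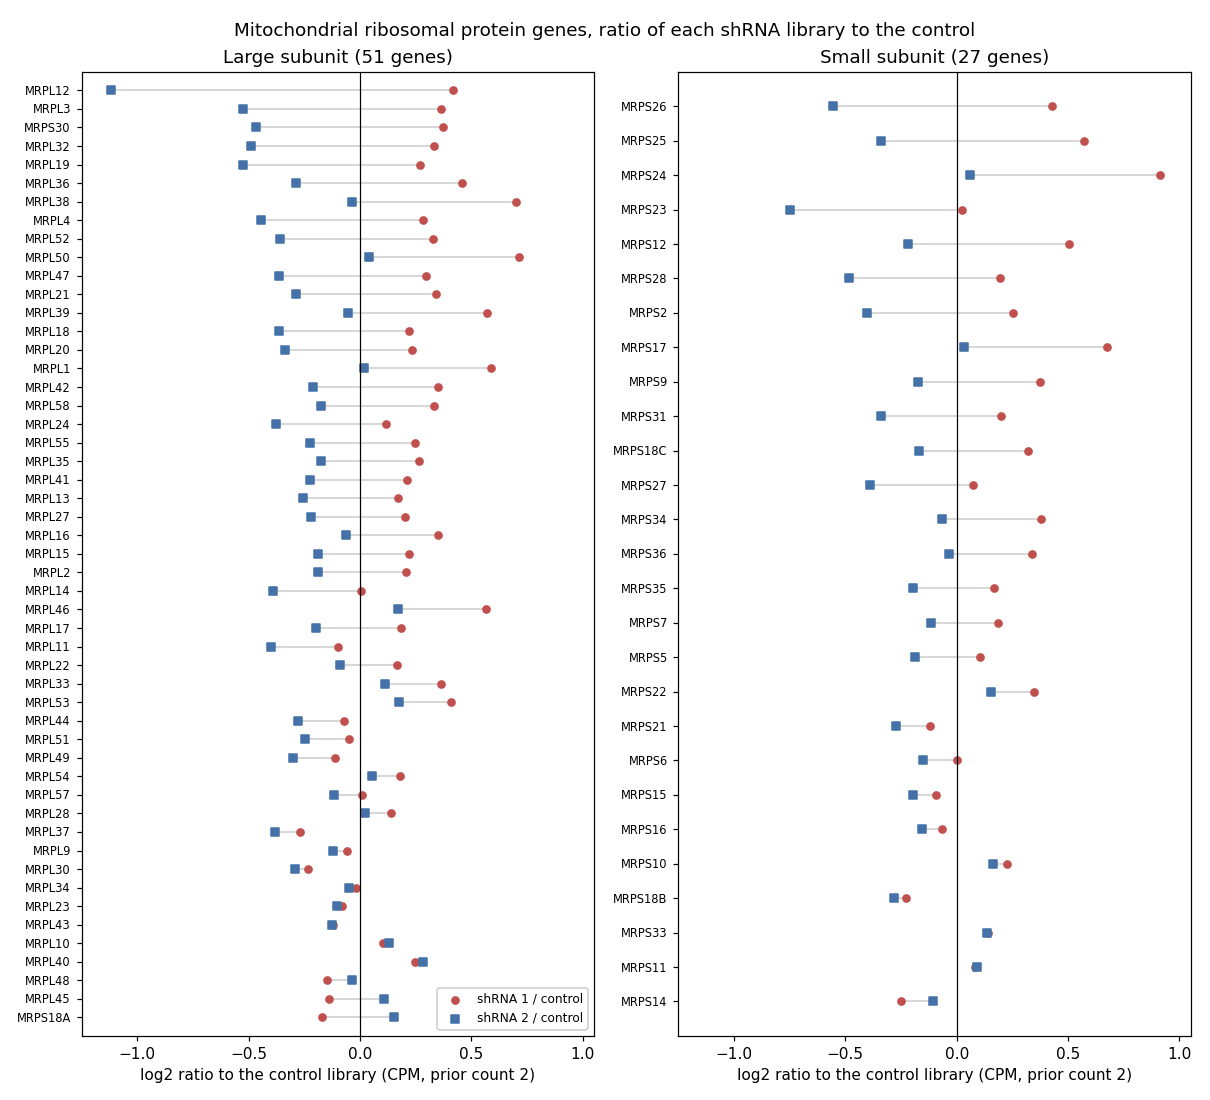
Log2 ratio to the control (x axis) of every gene of the large subunit (left) and the small subunit (right), ordered by the difference between the shRNA libraries, with red circles for shRNA 1 and blue squares for shRNA 2. Most circles lie right of 0 and most squares left of it, and the order of the 2 marks is turned round for the 7 genes named above, such as MRPS18A and MRPL45 at the bottom left and MRPS14 at the bottom right.

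Shifts of the large-subunit genes whose products have bacterial homologues resembled those of the set. Their 30 genes had median log2 ratios of 0.22 with shRNA 1 and -0.24 with shRNA 2, and 29 of the 30 were higher with shRNA 1 than with shRNA 2. MRPL3, whose product is a homologue of a bacterial protein near the peptidyl transferase centre, had 133 CPM with shRNA 1, 71.5 CPM with shRNA 2 and 103 CPM in the control. It lay above the control with shRNA 1 by a ratio of 1.29 (1.21 to 1.38) and below it with shRNA 2 by a ratio of 0.694 (0.644 to 0.748). The gene is ENSG00000114686 on the minus strand of chromosome 3, from 131462212 to 131502983 in hg38. MRPL32 had 61.2, 34.5 and 48.5 CPM in shRNA 1, shRNA 2 and control, and MRPL19 had 56.2, 32.3 and 46.5 CPM. These genes showed the same order of libraries, with the control in the middle.

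MRPL12 had the lowest ratio of all with shRNA 2, on few counts. It encodes the protein of the flexible stalk to which translation factors bind, and lies on the plus strand of chromosome 17 from 81703357 to 81707526. It was counted 72 times with shRNA 1, 27 times with shRNA 2 and 54 times in the control, or 4.73, 1.55 and 3.52 CPM. The ratio to the control was 1.35 (0.933 to 1.95) with shRNA 1 and 0.442 (0.267 to 0.713) with shRNA 2, and the edgeR log2 fold change of the pair was -0.17 with a standard error of 0.69 (adjusted p = 1.00). MRPL10 and MRPL11, whose products lie at the base of that stalk, had smaller differences. MRPL10 had 42.9 CPM with shRNA 1, 43.7 CPM with shRNA 2 and 39.8 CPM in the control, and MRPL11 had 84.7, 68.8 and 90.7 CPM. MRPL1, the protein of the other stalk, was counted 321, 247 and 215 times, so it was high in the shRNA 1 library alone, with a ratio to the control of 1.51 whose interval begins at 1.26.

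Among the 21 large-subunit genes whose products are particular to mitochondria, the medians were 0.21 with shRNA 1 and -0.11 with shRNA 2, and 17 were higher with shRNA 1 than with shRNA 2. MRPL50, on the minus strand of chromosome 9 from 101387633 to 101398614, had 44.9 CPM with shRNA 1, 28.2 CPM with shRNA 2 and 27.3 CPM in the control. Its shRNA 2 and control values were within counting error of each other, with a ratio of 1.03 (0.903 to 1.18), and its shRNA 1 value stood at 1.64 times the control (1.45 to 1.86). It had the highest edgeR log2 fold change of the genes above 5 CPM, 0.42 with a standard error of 0.41 and an adjusted p of 1.00, over a pair of shRNA lines at 36.5 ± 11.8 CPM (SD, n = 2). MRPL39 was counted 377, 279 and 256 times and MRPL46 had 10.5, 7.93 and 7.03 CPM in shRNA 1, shRNA 2 and control. MRPL38 had 64, 43 and 39 counts. In all of these the shRNA 1 library was the highest, and in MRPL38, MRPL39 and MRPL46 the shRNA 2 library lay within counting error of the control.

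MRPL37 was the lowest gene of the pair of lines. It lies on the plus strand of chromosome 1 from 54184041 to 54225464 and had 161 CPM with shRNA 1, 149 CPM with shRNA 2 and 194 CPM in the control. The shRNA libraries, at 155 ± 8.50 CPM (SD, n = 2), both lay below the control, by ratios of 0.830 (0.786 to 0.876) and 0.768 (0.728 to 0.809). Its log2 fold change in edgeR was -0.32 with a standard error of 0.30 and an adjusted p of 1.00. MRPL30, a homologue of a bacterial protein, had 23.6, 22.7 and 27.7 CPM, and 19.5% of its exonic bases overlap another gene on its strand. MRPL49 had 102, 89.4 and 110 CPM and MRPL44, which carries a domain of the RNase III family, had 42.1, 36.5 and 44.3 CPM. MRPL40 lay above the control in both shRNA libraries, with 25.4, 26.1 and 21.4 CPM, or 1.19 times (1.02 to 1.38) and 1.22 times (1.06 to 1.41) the control. Other large-subunit genes, such as MRPL33, MRPL10 and MRPL46, were also above it in both, but with an interval that included 1 for shRNA 2.

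A pair of large-subunit genes ran against the set between the shRNA libraries beyond counting error. MRPS18A, on the minus strand of chromosome 6 from 43671303 to 43687791, had 46.2 CPM with shRNA 1, 57.7 CPM with shRNA 2 and 51.9 CPM in the control, a ratio between the shRNA libraries of 0.800 (0.725 to 0.882). Of its exonic bases, 47.0% also belong to RSPH9 on the opposite strand, so reads of either gene may stand in its count. MRPL45, whose product lies near the exit of the peptide tunnel on the side that faces the inner membrane, had 43.9, 52.1 and 48.3 CPM, a ratio between the shRNA libraries of 0.843 (0.762 to 0.933), and no such overlap. MRPL48 had 17.1, 18.5 and 18.9 CPM and a ratio of 0.926 (0.784 to 1.09), which is within counting error of 1. MRPS30, the other large-subunit protein with a small-subunit name, had 107, 59.8 and 82.9 CPM, with a ratio of 1.79 (1.66 to 1.94) between the shRNA libraries.

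The 16 small-subunit genes with bacterial homologues had medians of 0.19 with shRNA 1 and -0.16 with shRNA 2, and 14 were higher with shRNA 1 than with shRNA 2. MRPS12, a homologue of the bacterial decoding-centre protein S12, had 78.2 CPM with shRNA 1, 47.4 CPM with shRNA 2 and 55.1 CPM in the control. Its ratios to the control were 1.42 (1.30 to 1.55) and 0.859 (0.780 to 0.947). MRPS17, on the plus strand of chromosome 7 from 55951819 to 55956501, had 32.6, 20.8 and 20.4 CPM. The library labelled shRNA 1 stood above the control by a log2 ratio of 0.68 and that labelled shRNA 2 was even with it, at 1.02 times (0.876 to 1.19). MRPS24 was counted only 11, 6 and 5 times, and although its shRNA 1 ratio of 2.22 was the highest of all 78, the interval ran from 0.712 to 8.16. MRPS14 had 22.4, 24.8 and 26.7 CPM, lowest with shRNA 1, at 0.840 times the control (0.726 to 0.972). MRPS7 had 103, 83.9 and 90.9 CPM, and MRPS10 had 72.2, 69.1 and 61.7 CPM with both shRNA libraries above the control.

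In the small subunit, all 11 genes particular to mitochondria were higher with shRNA 1 than with shRNA 2, with medians of 0.20 and -0.28 against the control. MRPS26, on the plus strand of chromosome 20 from 3045945 to 3048254, was counted 753 times with shRNA 1, 434 times with shRNA 2 and 565 times in the control. The scaled ratio between the shRNA libraries was 1.98 (1.76 to 2.24), and the control stood between them. The pair averaged 37.2 ± 17.4 CPM (SD, n = 2), and the edgeR log2 fold change was 0.02 with a standard error of 0.45 (adjusted p = 1.00). MRPS25 had 73.4, 39.0 and 49.3 CPM and a ratio between the shRNA libraries of 1.88 (1.71 to 2.08), with 22.2% of its exonic bases opposite NR2C2. MRPS23, on the minus strand of chromosome 17 from 57834781 to 57850056, had 49.4, 28.9 and 48.6 CPM. Unlike MRPS26 it was even with the control in the library labelled shRNA 1, at a ratio of 1.02 (0.918 to 1.13), and low in that labelled shRNA 2, at 0.594 (0.530 to 0.666).

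The 3 relatives of bacterial S18 differed in the order of the libraries. Of these, MRPS18A and MRPS18B are counted above among the genes particular to mitochondria, following the unified names of ribosomal proteins, although their sequences are related to S18. MRPS18C had 42.0 CPM with shRNA 1, 29.9 CPM with shRNA 2 and 33.6 CPM in the control, in the order of the set. Of its exonic bases, 40.2% lie opposite other exons, chiefly those of ABRAXAS1. As for MRPS18A, reads of either gene may stand in its count. MRPS18B had 79.7, 76.7 and 93.4 CPM, below the control in both shRNA libraries, at 0.854 (0.790 to 0.922) and 0.822 (0.762 to 0.886) times its level. MRPS18A, in the large subunit, had the reverse order of the set. MRPL58, a relative of release factors that frees stalled mitochondrial ribosomes, followed the set with 43.7, 30.7 and 34.6 CPM.

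Genes grouped by subunit or by level had medians of the same sign as the whole set in each comparison. The large-subunit genes had medians of 0.22, -0.20 and 0.41 and the small-subunit genes 0.19, -0.17 and 0.37 for shRNA 1 over control, shRNA 2 over control and shRNA 1 over shRNA 2. The 39 genes with the higher TPM had medians of 0.18, -0.22 and 0.39 for these comparisons and the 39 with the lower TPM had 0.25, -0.15 and 0.44. Mean TPM had Spearman correlations with these ratios of -0.26, -0.20 and -0.14 across the 78 genes, within libraries that enter both measures. GC content of the longest annotated transcript of each gene correlated weakly with the ratios across the 78 genes. Spearman values were -0.10, -0.04 and -0.08, against -0.18, -0.05 and -0.11 across all genes tested. The genes lie on 21 chromosomes with at most 8 on any of them.

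Many of the genes start beside another gene on the opposite strand. A protein-coding neighbour whose start lies within 1000 bases on the opposite strand was found for 29 of the 78 (37.2%), against 17.1% of tested protein-coding genes. In 22 such pairs both genes had at least 5 CPM in the control, and in those pairs the mitochondrial ribosomal protein genes had a median log2 ratio between the shRNA libraries of 0.39 and their neighbours 0.19. The pair of MRPL46 and MRPS11, which start 34 bases apart and are both in the set, was counted once, with MRPS11 as the neighbour. Counted in this way, 22 of the 22 ribosomal protein genes and 14 of the neighbours were higher with shRNA 1 than with shRNA 2, against 50.1% of all genes tested. MRPS11, with a log2 ratio of -0.01, is among the neighbours that were not. The 22 of 22 depends on this counting, and on leaving out MRPL10, at -0.03, because its neighbour LRRC46 was under 5 CPM in the control. For MRPL46 and MRPS11 the ratios between the shRNA libraries were 1.32 (1.04 to 1.67) and 0.994 (0.884 to 1.12). MRPL47 had a log2 ratio of 0.66 and its neighbour NDUFB5, a subunit of respiratory complex I, -0.06. MRPL36 and NDUFS6, another complex I subunit, had 0.75 and 0.67, and MRPL18 and TCP1, a subunit of the cytosolic chaperonin, 0.59 and 0.81. MRPL43 was at 0.00 while TWNK, the mitochondrial DNA helicase, was at 1.23. Among the pairs with the highest level, MRPL51 and NCAPD2 had 0.20 and -0.03, MRPL49 and FAU 0.19 and 0.24, MRPS7 and GGA3 0.30 and 0.39, and MRPS34 and EME2 0.45 and 0.05. Where the starts overlap, as for MRPL49, MRPL51, MRPS7 and MRPL43, reads of the 2 genes may not be fully told apart.

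**Figure D4:**
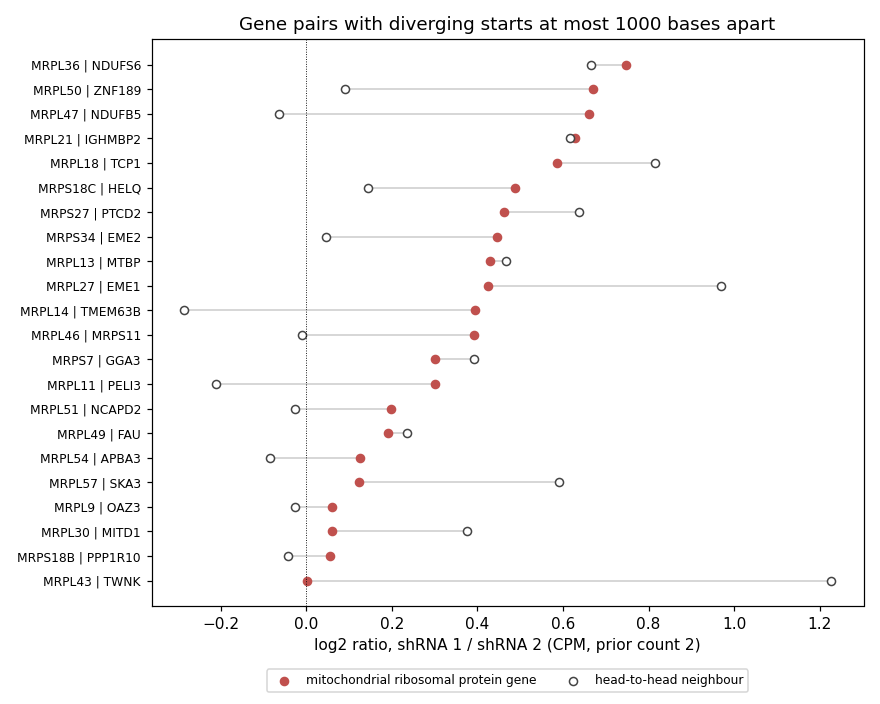
Log2 ratio of shRNA 1 to shRNA 2 (x axis) for 22 mitochondrial ribosomal protein genes (filled) and their neighbours (open), 1 pair a row. A neighbour starts at most 1000 bases away on the opposite strand. The title calls all starts diverging, but in some pairs, such as MRPL51 and NCAPD2, the genes overlap at their starts. The filled marks lie at or right of 0 and 8 of the 22 open marks left of it, and these 8 include MRPS11 at -0.01, which is itself a ribosomal protein gene and is drawn as the neighbour of MRPL46.

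Ratios varied widely among genes with the same letters in their windows. The 13 genes with AAGATGGCG had a median log2 ratio of shRNA 1 to shRNA 2 of 0.67 and the other genes with a window 0.37. Among the 13 were MRPS18A at -0.32, the lowest ratio of the set, and MRPS18B and MRPS10 at 0.06 each, and on the high side MRPS24 and MRPL38, which rest on few counts. The 29 genes with CCGGAAG had 0.25 and those without it 0.42. In the printed windows AAGATGGCG begins 23 bases after the annotated start in MRPL50 and 8 bases after it in MRPL46. MRPL50 and MRPL46 had log2 ratios of 0.67 and 0.39. CTTCCGG begins in MRPS26 at position -37 and in MRPS23 at position -14 from the start, and CCGGAAG begins in MRPS12 at position -5, and these genes had log2 ratios of 0.99, 0.77 and 0.72. These are descriptions of the letters and the ratios, without a test.

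Of the genes that work with the mitochondrial ribosome, none was called by the quasi-likelihood test, and the medians of their lists varied. The 5 ribosomal proteins with other names had medians of 0.08 with shRNA 1 and -0.18 with shRNA 2, against 0.21 and -0.19 for the 78 genes. DAP3, a GTP-binding protein of the small subunit, had 143 CPM with shRNA 1, 118 CPM with shRNA 2 and 150 CPM in the control, GADD45GIP1 of the large subunit had 98.6, 81.8 and 103 CPM, and PTCD3 of the small subunit had 68.5, 57.3 and 65.0 CPM. All 25 assembly factors were tested, with medians of 0.19 and -0.21. TFB1M, which dimethylates the small-subunit RNA, had 11.2, 9.95 and 15.3 CPM, so it was below the control in both shRNA libraries. The GTPase GTPBP10 had 25.5, 20.5 and 18.9 CPM and YBEY, an RNA nuclease, 20.3, 21.8 and 17.3 CPM. ERAL1, the chaperone of the small-subunit RNA, had 58.9, 57.5 and 63.7 CPM.

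The 16 translation factors and mRNA partners had medians of 0.21 with shRNA 1 and -0.09 with shRNA 2. MTIF2, the initiation factor that brings the first tRNA, had 61.0 CPM with shRNA 1, 44.4 CPM with shRNA 2 and 35.7 CPM in the control. MTFMT, which formylates that tRNA, had 13.5, 9.43 and 8.20 CPM and GUF1, the relative of bacterial elongation factor 4, had 49.8, 31.9 and 30.5 CPM. These 3 had the largest log2 fold changes of the list, 0.56 (SE 0.37), 0.48 (SE 0.44) and 0.42 (SE 0.40), each with an adjusted p of 1.00 in edgeR. The elongation factor TUFM had 240, 190 and 231 CPM, and LRPPRC, which stabilises mitochondrial mRNAs, had 228, 143 and 172 CPM.

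**Figure D5:**
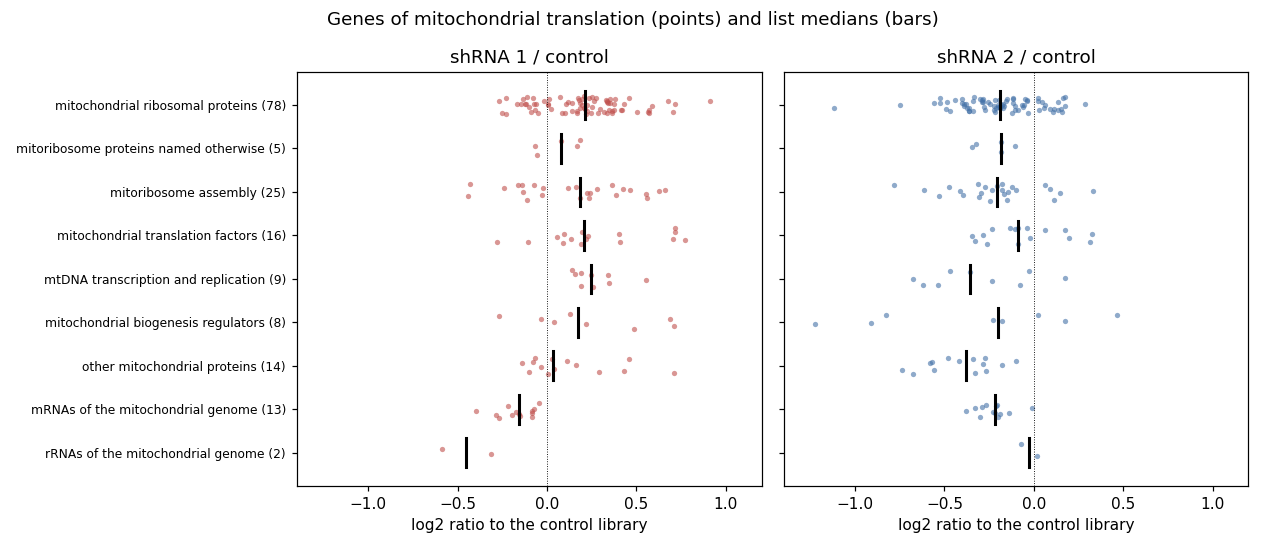
Log2 ratio to the control (x axis) of single genes (points) with the median of each list (bars) for shRNA 1 (left) and shRNA 2 (right), with the number of tested genes in brackets. The bars of the mitochondrial ribosomal proteins lie at 0.21 and -0.19, those of the mRNAs of the mitochondrial genome at -0.16 and -0.22 and those of its rRNAs at -0.45 and -0.03.

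Factors that copy and transcribe mitochondrial DNA had medians of 0.24 with shRNA 1 and -0.36 with shRNA 2, and all 9 were higher with shRNA 1 than with shRNA 2. TFB2M, a transcription initiation factor, had 30.7 CPM with shRNA 1, 17.4 CPM with shRNA 2 and 26.9 CPM in the control, TEFM, the elongation factor, had 18.3, 13.6 and 14.4 CPM, and MTERF1 had 14.9, 14.8 and 13.1 CPM. TFAM, which packages the DNA, had 80.1, 49.4 and 71.7 CPM. The 14 other mitochondrial proteins of import, metabolism and folding had medians of 0.03 and -0.38. With shRNA 1, 9 of the 14 lay above the control and 5 below, against 51.5% and 48.5% of all genes tested. Their ratios ran from 0.907 for ATP5F1A to 1.63 for TOMM40. All 14 lay below the control with shRNA 2, against 50.3% of all genes tested. All 14 were also higher with shRNA 1 than with shRNA 2, against 50.1%. Among these VDAC1, a channel of the outer membrane, had 343, 205 and 341 CPM, TIMM23 of the import machinery 67.7, 44.4 and 65.9 CPM, and ATP5F1A of ATP synthase 294, 243 and 324 CPM.

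The RNAs made inside mitochondria lay below the control with shRNA 1, where the median of the ribosomal protein genes lay above it, and with shRNA 2 the medians of the mitochondrial mRNAs and of the ribosomal protein genes were both below 0. The 13 mRNAs of the mitochondrial genome had medians of -0.16 with shRNA 1 and -0.22 with shRNA 2, and all 13 lay below the control in each. MT-ND3, a subunit of complex I, had 648 CPM with shRNA 1, 696 CPM with shRNA 2 and 853 CPM in the control, MT-ATP6 of ATP synthase 1678, 1614 and 2025 CPM, and MT-CO3 of complex IV 3413, 3587 and 4159 CPM. The RNAs of the mitochondrial ribosome itself were lowest with shRNA 1. MT-RNR1 of the small subunit had 1151 CPM with shRNA 1, 1446 CPM with shRNA 2 and 1430 CPM in the control, and MT-RNR2 of the large subunit had 4126, 5899 and 6208 CPM. In the library labelled shRNA 1 the summed protein genes thus stood at 1.11 times the control while both ribosomal RNAs stood below it. With the library kit unknown, it is uncertain how well reads in single libraries measure these ribosomal RNAs, and an imbalance between RNAs and proteins was not tested. The 78 tested genes of cytosolic ribosomal proteins had medians of -0.15 with shRNA 1 and -0.21 with shRNA 2. Between the shRNA libraries their median was 0.03, where the mitochondrial ones had 0.40. A median of that sign was not particular to the mitochondrial ribosomal proteins. It was 0.69 for the factors of mitochondrial DNA and 0.54 for the 14 other mitochondrial proteins. Translation factors had 0.33, assembly factors 0.32 and the ribosomal proteins with other names 0.27.

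Regulators known to act on mitochondrial genes differed among themselves. Of 9 listed, 8 were tested, with PPARGC1A under the filter. GABPA, the DNA-binding subunit of an ETS factor that binds many promoters of this kind, had 56.7 CPM with shRNA 1, 55.7 CPM with shRNA 2 and 40.4 CPM in the control, and its partner GABPB1 had 39.3, 38.1 and 33.8 CPM. The levels of these factors were alike in the shRNA libraries. MYC had 143 CPM with shRNA 1, 74.0 CPM with shRNA 2 and 131 CPM in the control. The coactivators PPRC1, with 95.1, 30.9 and 58.2 CPM, and PPARGC1B, with 14.9, 3.85 and 9.18 CPM, had the control in the middle. NRF1 had 18.7, 15.5 and 18.2 CPM and YY1 126, 115 and 130 CPM. ESRRA, with 131, 160 and 157 CPM, was lower with shRNA 1 than with shRNA 2, unlike the other 7. None of these was called by edgeR's quasi-likelihood test, and the part of any of them in the levels of the ribosomal protein genes was not tested.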

How the data were processed

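RNA was sequenced from 3 stable KYSE30 lines, 1 library each. The authors deposited 1 table of raw counts per gene, made with featureCounts 1.6.4 on an hg38 annotation with the strand option set to 1, per the file headers. Those headers show no paired-end option, and reads assigned to more than 1 gene are not counted under that tool's defaults. TopHat2, HTSeq and hg19 are named per the submitters' processing notes, which differs from the headers. Coordinates are given in hg38, since start and end were identical for all 52179 identifiers found with their version in GENCODE 29. No source used here gives the library kit, and counts of overlapping genes are therefore uncertain.

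Symbols came from a name table (56558 of 60554 identifiers matched) and gene types from GENCODE 29. Pseudogenes of the set, which could take reads from the genes, held 64, 51 and 61 counts in all in shRNA 1, shRNA 2 and control. The 17801 genes passing filterByExpr were scaled by TMM and tested with edgeR 4.0.16 in R 4.3.3 by the two-sided quasi-likelihood F test of the pair of shRNA lines against the control, with Benjamini-Hochberg adjustment at 0.05 over all of them. The standard error is the absolute log2 fold change over the square root of the F statistic. Where 1 library is set against 1 other, the ratio is a difference of log-CPM (prior count 2). Intervals of count ratios are exact conditional intervals at 95%, and cover counting error only. TPM uses the exon length in the table.

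The members, the gene lists and the rule for named genes were chosen with earlier results of these data known. The rule names the genes past 1.5-fold in either comparison with the control. At 5 CPM or more, it names the 5 highest and 5 lowest of the pair. The same floor holds for the 4 largest ratios in each direction between the shRNA lines. It also names the 4 highest and 4 lowest by TPM. Then come the 4 highest with a neighbour whose start lies within 1000 bases on the opposite strand. Up to 3 per other list, SNORD12B and ZFAS1 complete the rule. Other genes were named after their values were seen. Alternatives were DESeq2 1.42.0, the likelihood ratio test, other scalings, filters, prior count and folds, members without overlap, a GC correction and leaving out a line. The assembly list held 26 symbols, of which GTPBP5 is an older symbol of MTG2.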

Additional observations from a re-analysis of the deposited data

Results flagged for a closer look

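The median log2 ratio of the 78 mitochondrial ribosomal protein genes to the control had opposite signs in the shRNA lines, 0.21 in the library labelled shRNA 1 and -0.19 in that labelled shRNA 2. Both ratios share the control library, and the difference between the lines was not tested, because each line has 1 library. SNORD12B was counted 15 times with shRNA 1, 1 time with shRNA 2 and 7 times in the control. With the library kit unknown, it is uncertain how well such few reads measure a short RNA.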

How the results depend on the processing

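No gene of the set was called by edgeR's quasi-likelihood test, DESeq2, the likelihood ratio test, RLE scaling, no filter or a floor of 5 CPM. Over all genes the quasi-likelihood test called 0 (237 at an unadjusted p under 0.05), DESeq2 15, the likelihood ratio test 38 and the test without a filter 41. The medians of 0.21, -0.19 and 0.40 for shRNA 1 over control, shRNA 2 over control and shRNA 1 over shRNA 2 kept their sign and size under RLE scaling, library totals, a prior count of 0.5 and genes without opposite-strand overlap, and, in settings chosen after seeing the data, without genes of same-strand overlap and after a GC correction, which gave 0.16, -0.17 and 0.39. Counts of genes past 1.5-fold in these comparisons (5, 2 and 22) became 26, 21 and 45 at a difference of 0.32 on the log2 scale and 0, 1 and 1 at 2-fold. The median fold change of the pair of lines, 0.01, was -0.19 without the line labelled shRNA 1 and 0.21 without the line labelled shRNA 2, by construction the ratio of the line that is left, and these have no test. No paired analysis was possible because the groups share fewer than 2 replicate numbers. Genes with few counts, such as MRPS24, MRPL53, MRPL38 and MRPL12, are limited by depth.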
